A study of Homo sapiens with 3 samples.

Results

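The transcripts described here are those of 40 genes that drive or carry out cell division: mitotic kinases and their activators, cyclins and CDC25 phosphatases, spindle checkpoint proteins, regulators of the anaphase-promoting complex, centromere and kinetochore proteins, and spindle motors. They were chosen by symbol, with earlier results of these data known, as probe sets annotated to 1 gene with one of the 40 symbols. Of these genes 39 had such a probe set and all 39 passed the filter on low signal, out of 11653 genes that passed it on the array. PTTG1, which encodes securin, the inhibitor of separase, was named only by 2 probe sets that also name other genes and has no value here. Messenger RNA came from A498, an established human line derived from a kidney carcinoma that grows as an epithelial layer, and was measured on Affymetrix 3' expression arrays. There was 1 array for a control culture given 0.08% DMSO, 1 for a culture with E. coli 83972, a bladder isolate that persists without symptoms, and 1 for a culture with 60 µM DRB, an inhibitor of CDK9 that blocks elongation by RNA polymerase II. All 3 cultures were confluent layers kept for 4 h in serum-free RPMI with gentamicin, and all carry the experiment number 2. DMSO is stated for the control alone, and the labels give 2 different bacterial concentrations, so no dose is given for E. coli 83972.

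Entry into mitosis is set off by CDK1 bound to cyclins A and B, which CDC25 phosphatases activate and the Aurora and Polo kinases reinforce. The kinetochore, built on centromeric chromatin that contains the histone variant CENP-A, binds spindle microtubules, and the spindle checkpoint holds back the anaphase-promoting complex until every chromosome is attached. Most of these genes are transcribed late in the cell cycle, when NF-Y bound to CCAAT boxes and the MuvB-B-MYB-FOXM1 complex at the cell cycle genes homology region, or CHR, drive their promoters, and in resting cells the DREAM complex holds them down at the same element.

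Promoter sequences came from RefSeq with build GRCh38.p14, which matched 35 of the 40 genes with 47 annotated starts. AURKA, BIRC5, BUB3, TPX2 and TTK had no entry. The 250 bases before each start are shown for the 4 members with an entry whose levels were lowest with DRB against control and for the 2 whose differences were nearest to 0, to set promoters of both kinds side by side. CENPA lies at chr2:26785806-26786055 on the plus strand, CCNF at chr16:2429197-2429446 on the plus strand and BORA at chr13:72727673-72727922 on the plus strand. FBXO5 has 2 annotated starts on the minus strand, at chr6:152983580-152983829 and chr6:152983042-152983291. CENPN lies at chr16:81006964-81007213 on the plus strand and BUB1 at chr2:110678064-110678313 on the minus strand. Each sequence runs 5′ to 3′ toward the start of the gene, and capitals mark CCAAT or its reverse ATTGG, and the CHR letters TTTGAA or TTCAAA or TTCGAA.
CENPA: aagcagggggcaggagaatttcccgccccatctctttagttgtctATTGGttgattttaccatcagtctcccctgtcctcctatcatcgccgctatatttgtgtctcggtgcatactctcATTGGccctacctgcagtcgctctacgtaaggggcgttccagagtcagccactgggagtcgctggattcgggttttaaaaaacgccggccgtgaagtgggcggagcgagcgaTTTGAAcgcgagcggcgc
CCNF: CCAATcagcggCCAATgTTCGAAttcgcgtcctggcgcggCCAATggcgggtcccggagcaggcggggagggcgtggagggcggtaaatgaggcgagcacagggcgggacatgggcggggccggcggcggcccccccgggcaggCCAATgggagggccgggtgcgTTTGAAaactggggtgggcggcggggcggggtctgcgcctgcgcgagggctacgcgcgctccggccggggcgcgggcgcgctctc
BORA: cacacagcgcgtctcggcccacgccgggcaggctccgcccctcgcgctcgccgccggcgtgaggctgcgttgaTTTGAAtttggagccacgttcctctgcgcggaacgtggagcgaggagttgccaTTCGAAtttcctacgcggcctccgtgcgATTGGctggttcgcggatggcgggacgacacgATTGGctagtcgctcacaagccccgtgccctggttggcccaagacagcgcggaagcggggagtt
FBXO5, upstream start: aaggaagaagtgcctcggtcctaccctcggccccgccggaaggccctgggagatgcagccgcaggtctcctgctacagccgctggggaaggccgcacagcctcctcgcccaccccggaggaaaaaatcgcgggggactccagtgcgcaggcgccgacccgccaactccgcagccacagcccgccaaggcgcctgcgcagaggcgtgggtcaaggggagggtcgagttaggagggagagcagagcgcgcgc
FBXO5, downstream start: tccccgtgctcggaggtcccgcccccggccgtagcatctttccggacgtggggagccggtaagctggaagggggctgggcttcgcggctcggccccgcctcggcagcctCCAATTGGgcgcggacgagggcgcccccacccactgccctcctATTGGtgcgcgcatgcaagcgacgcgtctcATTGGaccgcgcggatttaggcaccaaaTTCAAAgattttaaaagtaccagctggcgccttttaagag
CENPN: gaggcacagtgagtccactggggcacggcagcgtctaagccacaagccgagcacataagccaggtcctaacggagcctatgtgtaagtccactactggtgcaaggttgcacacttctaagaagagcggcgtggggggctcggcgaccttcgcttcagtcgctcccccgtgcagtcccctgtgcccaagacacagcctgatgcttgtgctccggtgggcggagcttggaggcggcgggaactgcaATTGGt
BUB1: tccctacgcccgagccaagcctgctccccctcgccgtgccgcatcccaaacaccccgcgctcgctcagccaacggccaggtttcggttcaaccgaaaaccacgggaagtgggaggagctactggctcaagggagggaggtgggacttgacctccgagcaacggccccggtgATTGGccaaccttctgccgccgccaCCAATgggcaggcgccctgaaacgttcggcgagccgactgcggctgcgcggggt

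CENPA held ATTGG at 205 and 130 bases before the start and TTTGAA at 18 bases. In BORA, TTTGAA lay at 177 bases, TTCGAA at 124 bases and ATTGG at 96 and 64 bases. The downstream start of FBXO5 held TTCAAA at 40 bases, behind 4 CCAAT-type matches of which the pair at 141 and 138 bases overlaps, and the upstream start held no match. BUB1 had CCAAT-type letters at 79 and 54 bases and CENPN at 6 bases, and neither held CHR letters in this window. Over the 47 member promoters 34 (72.3%) held CCAAT on either strand, against 32.0% of all 35116 promoters of this length, and 19 (40.4%) held the CHR letters on either strand, against 14.3%. Both occurred in 18 (38.3%), against 5.05% of all promoters. Among the 15 promoters of members at least 2-fold lower with DRB 10 held CCAAT and 5 the CHR letters. Among the 32 of the other members 24 and 14 did. PTTG1, which has no DRB value, gave 2 of these 32, both with CCAAT and neither with the CHR letters. Some genes have several starts, and where their windows overlap, as in AURKB, the same letters are counted more than once. Counted by gene, CCAAT was held by 9 of 11 lower members and by 20 of 24 others, PTTG1 included. The CHR letters were held by 5 of 11 and by 13 of 24. A match is a description of the letters and not a binding site.

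**Figure D1:**
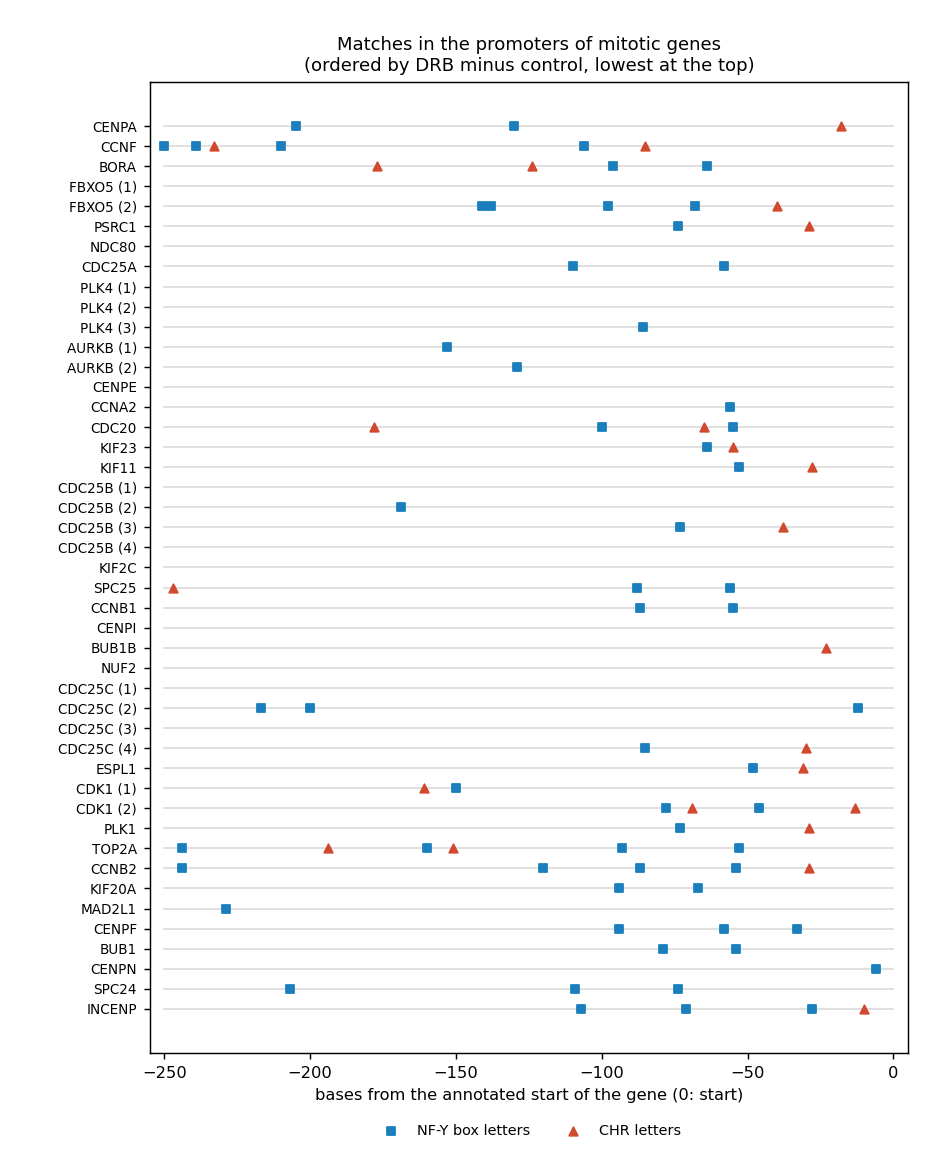
Matches to the CCAAT box, bound by NF-Y (blue squares), and to the CHR letters (red triangles) in the 250 bases before each annotated start of members with a value and a promoter entry. The x axis is the distance in bases from the start, and rows run from the lowest DRB minus control difference at the top (CENPA, −3.07) to the highest at the bottom (INCENP, 0.23), with numbers in brackets for genes of several starts. Matches are present in rows at the top and at the bottom alike.

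Values are log2 probe-set values, and each gene is given by its brightest probe set, judged by the average of the 3 arrays. The filter asked for at least 1 value of 4.88 or more, the array-wide median, and all 39 mitotic genes met it on the control array. A difference of 1 on the log2 scale is 2-fold. Since each group had 1 array, differences compare single cultures, have no replicate check and carry no p-value. Disagreement between the 2 brightest probe sets of 6317 genes, divided by √2, gave an SD of 0.32 for log2 differences of DRB from control. It was 0.18 for those of E. coli 83972 from control, and 0.35 for those of E. coli 83972 from DRB. Robust SDs, from median deviations, were 0.15, 0.12 and 0.17 in the same order. Probe sets of 1 gene can disagree for other reasons than technical error. None of these SDs includes variation between cultures. Array medians were 4.87 to 4.90. The 3′ minus 5′ difference of the ACTB control probe sets was 1.83 to 2.00 and that of GAPDH 0.08 to 0.16. Of the markers of the labelled cell type, VIM (12.76 to 12.85), KRT18 (11.55 to 11.67), KRT8 (9.84 to 10.47) and the kidney factor gene PAX8 (6.10 to 7.23) were above the filter, and EPCAM (3.32 to 3.43) was not. Of the leukocyte, endothelial and fibroblast markers 5 of 16 measured passed the filter. They were CD68 (9.08 on the control array and 9.41 with DRB), a lysosomal protein used as a macrophage marker, CD3E (4.53 to 5.03), PECAM1 (5.37 to 5.60), VWF (5.50 to 5.59) and COL1A1 (4.98 to 5.10), while PTPRC, which defines leukocytes, read 3.41 to 3.52. Their part in the results was not tested. These levels belong to different probe sets and are not compared with each other.

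DRB was set against control to see which of these transcripts were lower after 4 h of blocked elongation. Most of these mitotic transcripts were lower with DRB, and the sizes ranged from 8.40-fold to none. They were chosen with earlier results of these data known, so their shares describe this list and not mitotic genes in general. Of 73 other mitotic genes 10 (13.7%) were at least 2-fold lower. Of 39 members 13 were at least 2-fold lower, which is 33.3%, against 10.2% of all genes that passed the filter, and 0 were at least 2-fold higher, against 0.129%. In all 36 of 39 lay below 0, against 44.2% of all genes. The median difference was −0.68, with an interquartile range from −1.24 to −0.38, against a median of 0.05 for all genes. At a 1.5-fold threshold 22 members were lower, against 18.1% of all genes, and 0 higher, against 2.03%. In cultures measured in bulk, fewer cells in or near mitosis and less RNA per cell cannot be told apart. The DRB array was the lowest of the 3 arrays for 31 of 39 members, against 35.8% of all genes.

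**Figure D2:**
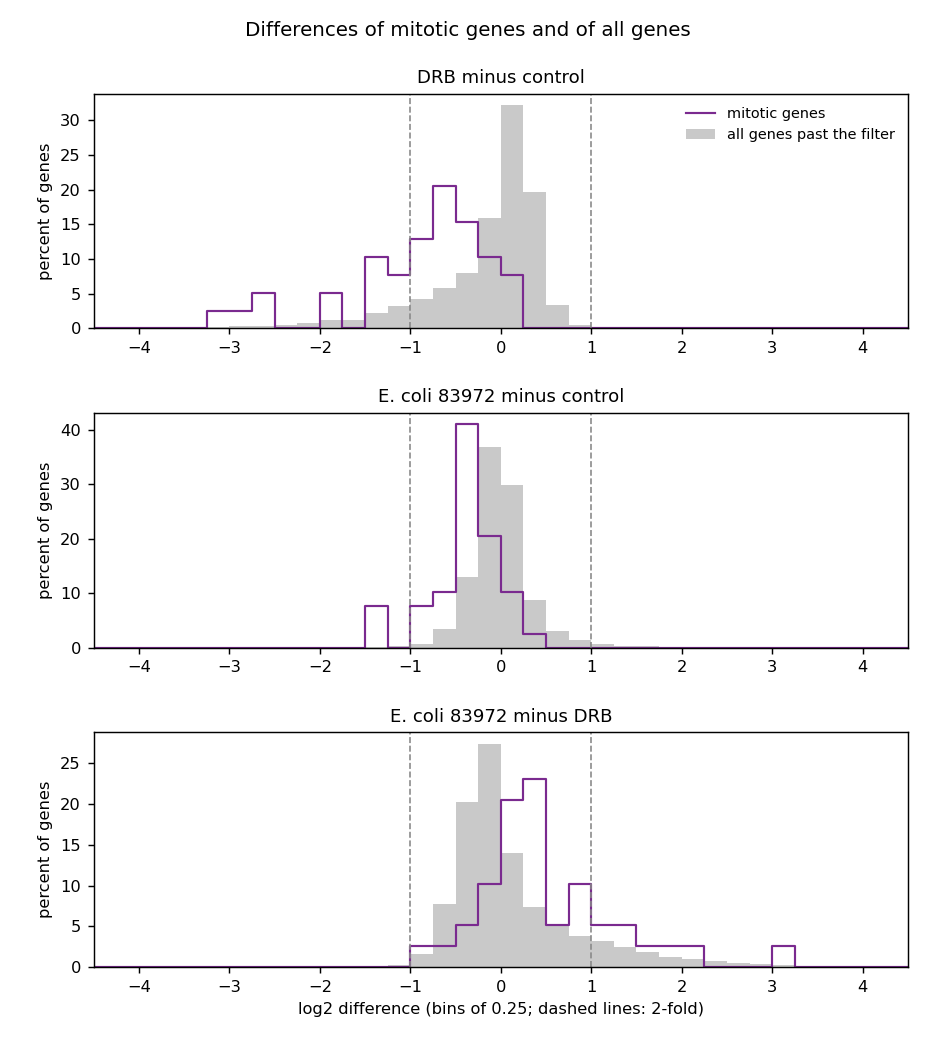
Log2 differences of the 39 mitotic genes (purple line) and of all 11653 genes that passed the filter (grey bars), as percent of genes per bin of 0.25, in the 3 comparisons of single arrays. With DRB the mitotic genes lie left of the bulk of genes (median −0.68 against 0.05), with E. coli 83972 they lie slightly left of it (−0.33 against −0.03), and in the direct comparison they lie to its right (0.35 against −0.07).

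Among the mitotic kinases the largest difference was that of AURKA, the Aurora kinase of centrosomes and spindle poles. AURKA read 10.12 on the control array, 9.49 with E. coli 83972 and 7.38 with DRB. It was 6.70-fold lower with DRB (log2 −2.74), the 75th lowest difference of the 11653 genes, on a single probe set. BORA, the cofactor through which Aurora A activates PLK1, read 7.55, 6.11 and 4.83 in the same order and was 6.62-fold lower with DRB (−2.73). The value of BORA with DRB was under the filter level, where differences are compressed, and its second probe set above the filter gave −2.07. The third BORA probe set was under the filter on every array and gave −0.55. TPX2, which activates Aurora A on spindle microtubules, stood apart from both with 9.07, 9.07 and 9.11, a difference of 0.04. PLK4, the kinase that starts centriole duplication, read 6.53, 6.04 and 5.27 and was 2.39-fold lower (−1.26), while its other probe set was under the filter on every array and differed by 0.04. PLK1 itself, the main Polo kinase of mitosis, differed by −0.48. Besides AURKA, the members at least 2-fold lower with DRB on only 1 probe set were AURKB, CENPE, FBXO5, NDC80, PSRC1 and TTK.

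Among the cyclins and their phosphatases the differences ran from 6.74-fold downward. CCNF, which encodes cyclin F, a substrate receptor of an SCF ubiquitin ligase, read 7.94 on the control array, 6.49 with E. coli 83972 and 5.19 with DRB. That is 6.74-fold lower with DRB (−2.75), from a probe set of the type that can hybridize with related transcripts, and its dimmer probe set, under the filter, gave −0.99. CDC25A, a phosphatase that activates cyclin-dependent kinases in S phase and at mitotic entry, read 6.13, 6.50 and 4.74 and was 2.61-fold lower with DRB (−1.38). Its 3 probe sets gave −1.65, −1.38 and −0.14. Those that gave −1.65 and −0.14 were under the filter level on the control and DRB arrays. CCNA2, the gene of cyclin A2, read 10.04, 9.46 and 8.90, a difference of −1.13, and its second probe set gave −1.70. The B-type cyclin genes differed less, with −0.68 for CCNB1 and −0.45 for CCNB2, as did their kinase gene CDK1 with −0.51. CDC25B, which starts CDK1 activation at centrosomes, read 8.72, 8.93 and 7.92, a difference of −0.80, but its other 4 probe sets lay between −0.31 and 0.16. CDC25C differed by −0.55. All 8 genes of this group were below 0, against 44.2% of all genes, and 3 (37.5%) were at least 2-fold lower, against 10.2%.

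The centromere and kinetochore genes held the largest difference of all members. CENPA, the histone H3 variant that marks the centromere, read 9.28 on the control array, 9.31 with E. coli 83972 and 6.21 with DRB. It was 8.40-fold lower with DRB (−3.07), the 32nd lowest of 11653 genes. Its other 3 probe sets gave −3.88, −3.50 and −0.95, so that 3 of 4 were at least 2-fold lower, and the mean was −2.85 ± 1.31 (SD, 4 probe sets). CENPE, a kinesin that carries chromosomes to the metaphase plate, read 8.07, 7.85 and 6.88 and was 2.28-fold lower (−1.19). The 4 subunits of the NDC80 complex, the microtubule coupler of the kinetochore, did not share 1 value. NDC80 read 8.52, 8.05 and 7.07 and was 2.73-fold lower (−1.45), SPC25 differed by −0.68 and NUF2 by −0.57. SPC24 read 8.01, 7.18 and 8.16 and was above 0 in 5 of 5 probe sets (mean 0.23 ± 0.07, SD over 5 probe sets), but its brightest probe set lay below 0 with centring on poly-A (−0.49) or hybridization (−0.05) spike-ins. Of the other centromere proteins CENPI differed by −0.67 and CENPF, a large protein of the outer kinetochore, by −0.11. CENPN, which reads CENP-A nucleosomes, differed by −0.04 in its brightest probe set and by −0.38 ± 0.30 over 5 probe sets, so its place near 0 rests on the choice of probe set.

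Of 5 checkpoint genes 1 (20%) was at least 2-fold lower, and of 3 passenger genes 1 (33.3%), against 10.2% of all genes. TTK, the checkpoint kinase MPS1, read 8.48 on the control array, 7.90 with E. coli 83972 and 7.02 with DRB, 2.76-fold lower with DRB (−1.46). The other 4 checkpoint genes, BUB1B (−0.60), BUB3 (−0.32), MAD2L1 (−0.26) and BUB1 (−0.09), were below 0 and under 2-fold. AURKB, the kinase of the chromosomal passenger complex, read 9.02, 8.86 and 7.81 and was 2.32-fold lower (−1.22). Its partners among the members were near control, with −0.11 for BIRC5, which encodes survivin, and 0.23 for the scaffold gene INCENP. INCENP read 5.10, 4.99 and 5.32, close to the filter level. A further subunit gene of the complex, CDCA8, is not a member and differed by −1.15. It was named after its value was seen. BIRC5 had 10 probe sets above the filter, of which 3 were below 0, and their mean was 0.08 ± 0.16 (SD, 10 probe sets).

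The regulators of the anaphase-promoting complex and the spindle motors followed the same direction. FBXO5, which encodes EMI1, the inhibitor of that complex in interphase, read 8.17 on the control array, 7.88 with E. coli 83972 and 6.33 with DRB, 3.58-fold lower with DRB (−1.84). CDC20, its activator in mitosis, read 9.44, 8.66 and 8.55, a difference of −0.89, next below the 2-fold limit. Its second probe set gave −0.79, and the third, the dimmest, 0.34 (mean −0.45 ± 0.68, SD over 3 probe sets). ESPL1, the gene of separase, differed by −0.52. PSRC1, a microtubule-binding protein of the spindle, read 6.75, 5.27 and 4.92 and was 3.56-fold lower (−1.83), on a single probe set close to the filter level with DRB. The 4 KIF-named kinesin genes were lower by less than 2-fold. KIF23, the central spindle motor of cytokinesis, read 9.56, 9.31 and 8.68 (−0.88). KIF11, the motor that separates spindle poles, read 9.71, 9.30 and 8.89 (−0.82). KIF2C, a microtubule depolymerase, differed by −0.77, KIF20A by −0.32 and the chromosome topoisomerase gene TOP2A by −0.48.

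**Figure D3:**
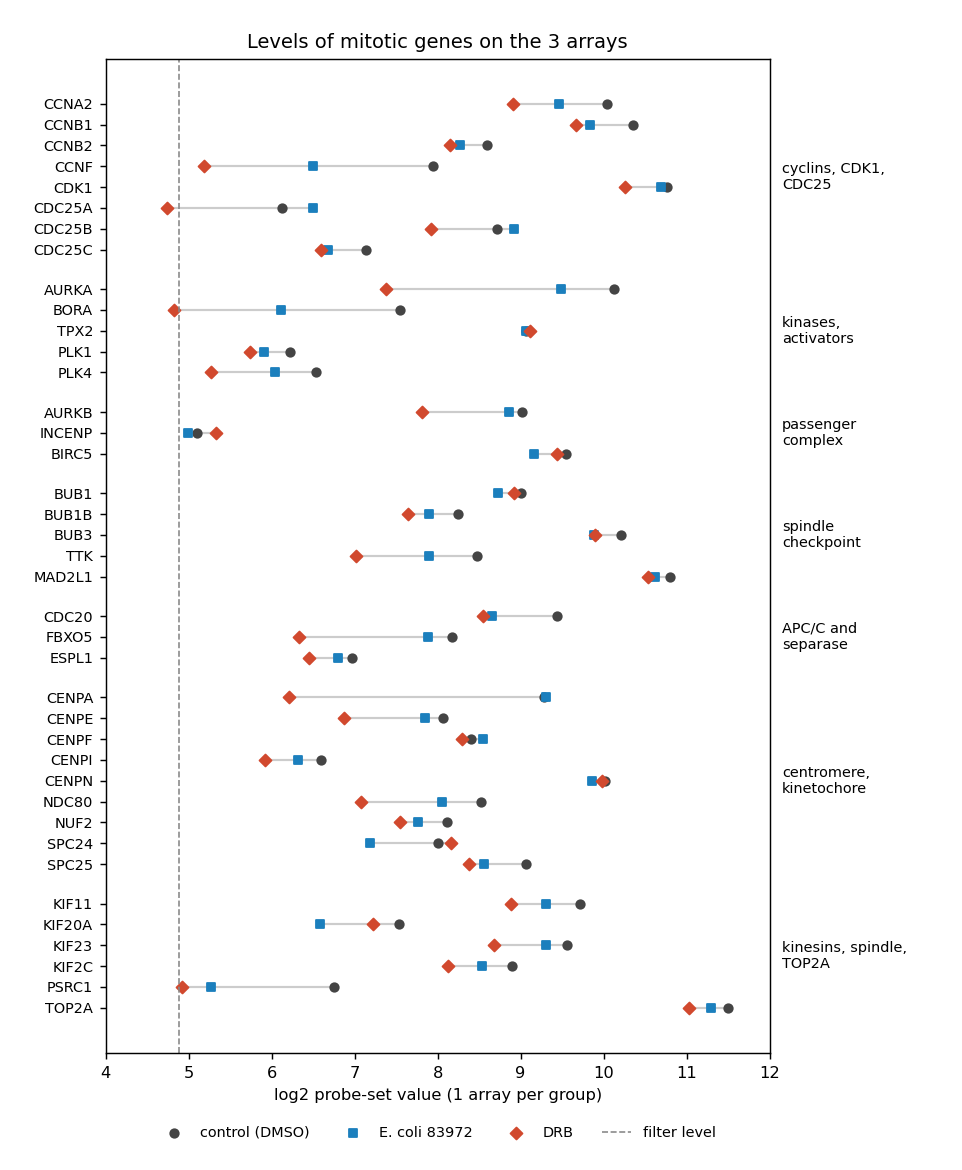
Log2 values of each mitotic gene on the control (grey circles), E. coli 83972 (blue squares) and DRB (red diamonds) arrays, 1 array per group and no error bar, grouped by role, with the filter level of 4.88 as a dashed line. The DRB value is the lowest of the 3 for 31 of 39 genes, and CENPA is the gene with the widest span, from 6.21 to 9.31.

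The split depended on the scaling. With differences centred on the 24 poly-A spike-in probe sets, which were higher on the DRB array by a median of 0.65, the median of all genes moved to −0.60. Then 29 of 39 members were at least 2-fold lower, against 24.7% of all genes, and 0 members were at least 2-fold higher. All 39 members then lay below 0, the 3 above 0 as deposited included (SPC24, INCENP at −0.42 and TPX2 at −0.61), and with hybridization centring 38 did, the exception being INCENP (0.02). The median of all genes with hybridization centring was −0.16, so with both centrings most genes of the array lay below 0 too. The exact share of all genes below 0 was not computed for these centrings.

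The culture with E. coli 83972 was set against control to see which of these transcripts differed after 4 h with the bacterium. Differences were small and mostly below 0. Of 39 members 3 were at least 2-fold lower, which is 7.69%, against 0.652% of all genes, and 0 were at least 2-fold higher, against 1.91%. In all 34 of 39 lay below 0, against 54.7% of all genes, and the median was −0.33 against −0.03. At 1.5-fold 7 members were lower, against 3.06% of all genes, and 0 higher, against 5.19%. These differences share the control array with those of DRB, so any deviation of that array enters both.

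The 3 members were PSRC1, CCNF and BORA. PSRC1 was 2.79-fold lower with E. coli 83972 (−1.48), the 15th lowest of 11653 genes. CCNF was 2.73-fold lower (−1.45), and its dimmer probe set gave −0.65. BORA was 2.71-fold lower (−1.44), and its second probe set gave −1.56. For these 3 genes the control array was high, the DRB array low, and E. coli 83972 between them. This order was that of 27 of 39 members and of 15.3% of all genes. KIF20A, a kinesin of the central spindle, came next. It read 7.54 on the control array, 6.58 with E. coli 83972 and 7.22 with DRB, a difference of −0.96 with the bacterium against −0.32 with DRB. SPC24 was lower by 0.83 in its brightest probe set (−0.45 ± 0.22, SD over 5 probe sets, 5 of 5 below 0). CDC20 differed by −0.78, with −0.94 and 0.16 in its other probe sets. AURKA differed by −0.63, TTK by −0.58 and CCNA2 by −0.58. CENPA, the lowest member with DRB, was at control level with E. coli 83972, with 0.03 in its brightest probe set and −0.13 to 0.09 over its 4 probe sets. The members above 0 were CDC25A (0.38), CDC25B (0.21, with 5 of 5 probe sets above 0), CENPF (0.14), CENPA and TPX2 (0.003). The other probe sets of CDC25A passed the filter only through the E. coli 83972 array, so their direction against control adds no support. The dimmest CDC25B probe set was also under the filter on the control array (4.82). Centred on hybridization spike-ins, which lowered the median of all genes to −0.28, 6 of 39 members were at least 2-fold lower, against 1.46% of all genes. CDC25A (0.12) was then the 1 member above 0, and CDC25B (−0.05), CENPF (−0.12), CENPA (−0.23) and TPX2 (−0.25) were below it. With poly-A centring CENPA (−0.11) and TPX2 (−0.13) were below 0.

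**Figure D4:**
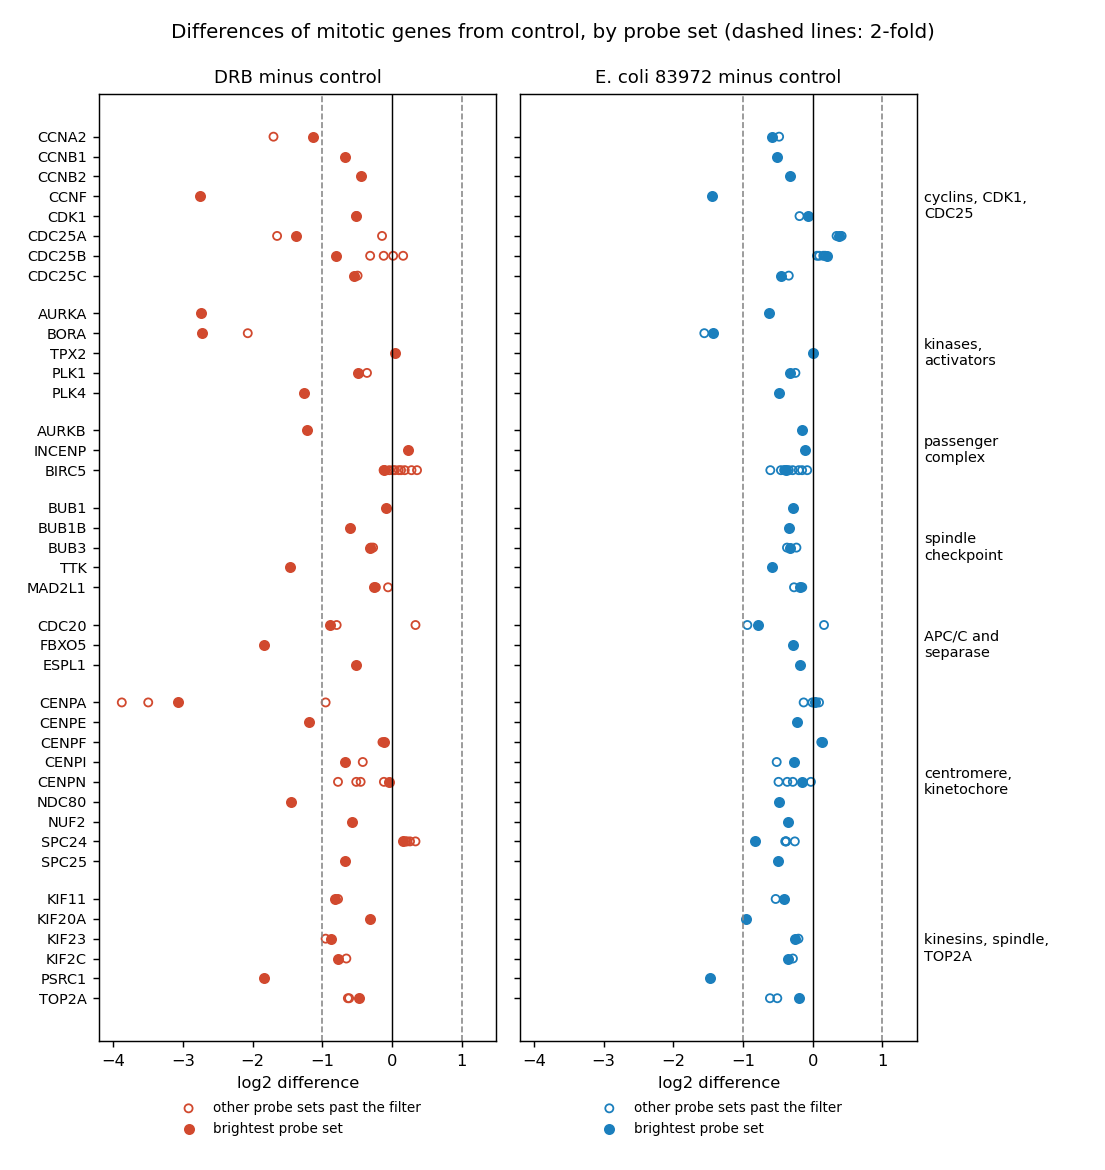
Log2 differences from control for each mitotic gene with DRB (left) and E. coli 83972 (right), as the brightest probe set (filled circles) and all other probe sets above the filter (open circles), with dashed lines at 2-fold. Of the 20 genes with 2 or more probe sets above the filter, most have them close together. Wider spreads with DRB are those of CENPA, CDC25A, CDC20, BORA, CCNA2, CDC25B and CENPN, and with E. coli 83972 that of CDC20. PSRC1, CCNF and BORA are the genes past 2-fold in the right panel.

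The direct comparison of E. coli 83972 with DRB does not use the control array. Of 39 members 8 were at least 2-fold higher with E. coli 83972, which is 20.5%, against 12.3% of all genes, and 0 were at least 2-fold lower, against 0.386%. The 8 were CENPA, 8.56-fold higher (3.10), AURKA, 4.33-fold (2.11), CDC25A, 3.39-fold (1.76), FBXO5, 2.93-fold (1.55), CCNF, 2.47-fold (1.30), BORA, 2.44-fold (1.29), AURKB, 2.08-fold (1.06), and CDC25B, 2.01-fold (1.01). PSRC1 was low on both arrays and differed by 0.35 between them. SPC24 (−0.99) and KIF20A (−0.63) were the members with the lowest differences, since their lowest values were on the E. coli 83972 array. In all 8 of 39 members lay below 0, against 57.3% of all genes, and the median was 0.35, against −0.07. At 1.5-fold 13 members were higher, against 19.3% of all genes, and 2 lower, against 5.72%. With the mean over all probe sets of a gene 5 of 38 members were at least 2-fold higher, against 9.27% of all genes. BORA (0.67), CCNF (0.82) and CDC25B (0.35) were then under 2-fold. With centring on hybridization spike-ins AURKB (0.95) and CDC25B (0.90) were under 2-fold.

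Other genes of the pathway, from 5 lists that hold no member, gave a wider view of the DRB array. Of 73 other mitotic genes 10 (13.7%) were lower by 2-fold or more, close to the 10.2% of all genes, and 0 were higher by as much, with a median of −0.28 against 0.05 for all genes. The largest differences were those of MIS12 (−2.98), a scaffold of the outer kinetochore, the kinesin gene KIF18A (−2.84), CENPC (−2.64), whose protein binds CENP-A nucleosomes, and CENPL (−2.40). HJURP, the chaperone that deposits CENP-A, differed by −2.23. It was named after its value was seen, and read 9.67 on the control array, 9.13 with E. coli 83972 and 7.43 with DRB. MKI67, a classic marker of cycling cells, named for that reason, differed by −0.15 with DRB and 0.06 with E. coli 83972.

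Of 22 genes for the transcription factors of late cell cycle promoters 6 (27.3%, against 10.2% of all genes) were 2-fold or more below control with DRB, and 0 above it by as much (median −0.41). They were led by E2F8 (−2.64), a repressor of the E2F family, the MuvB subunit gene LIN9 (−2.39), E2F5 (−2.08) and NFYA (−1.96), which encodes a subunit of NF-Y. Of 10 genes for brakes on CDK1 and for the phosphatase that opposes it with its regulators 3 (30.0%, against 10.2%) were at least 2-fold lower. They were MASTL (−1.54), CDKN1A (−1.22) and PPP2R2D (−1.12), and the median of the list was −0.51. Of 15 genes for APC/C subunits and partners 1 (6.67%, under the 10.2% of all genes) was at least 2-fold lower. It was UBE2S (−1.02), whose product is a ubiquitin-conjugating enzyme that works with the complex and not a subunit. The lowest subunit gene was ANAPC10 (−0.98), and the median of the list was −0.12. Cohesin genes had 1 of 9 (11.1%, near the share of all genes) lower, the cohesin release factor gene WAPL (−2.39), and a median of −0.33.

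With E. coli 83972 the same lists held few large differences. Among the 73 other mitotic genes SGO2 (−1.44), a protector of centromeric cohesin, was the 1 (1.37%) at least 2-fold lower, against 0.652% of all genes, and 59 (80.8%) lay below 0, against 54.7% (median −0.20). Among the transcription factors E2F8 was lower (−1.40) and E2F5 higher (1.13), and GADD45A, a stress gene that restrains CDK1, was higher by 1.21.

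**Figure D5:**
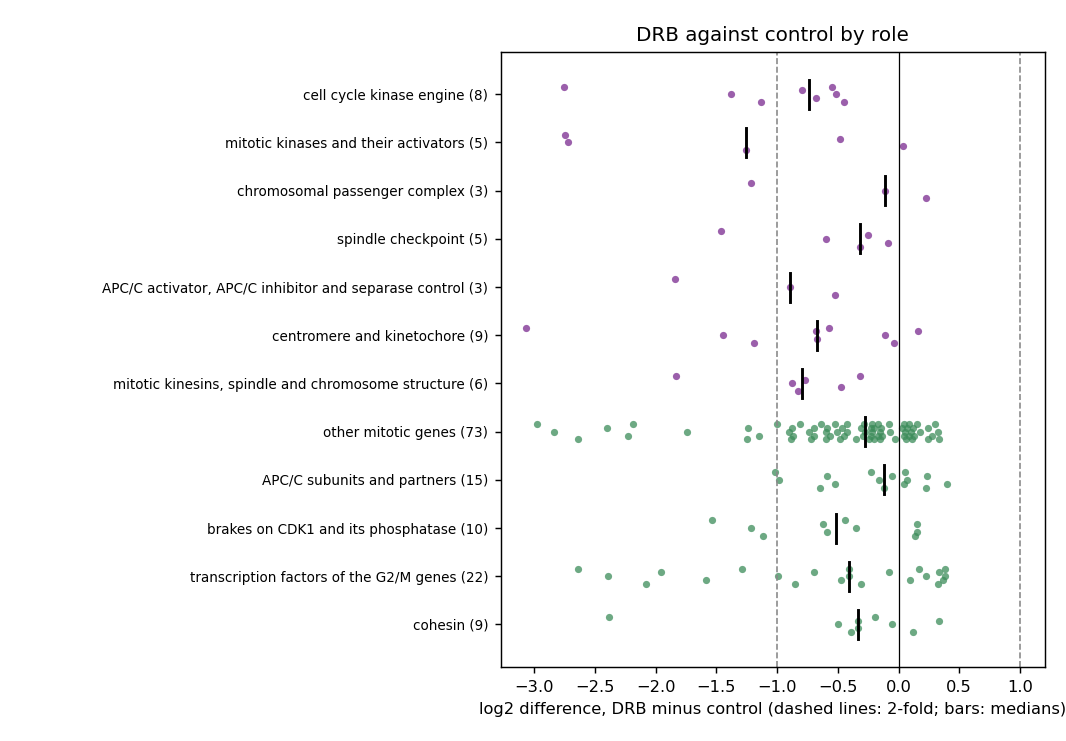
DRB minus control log2 differences of single genes by role, for the mitotic genes (purple) and for 5 lists of related genes without members (green), with the number of genes in brackets, medians as black bars and dashed lines at 2-fold. Medians lie below 0 in all 12 rows, from −1.26 for the mitotic kinases and their activators to −0.11 for the passenger complex, and single genes of most rows lie far below their median.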

How the data were processed

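Per the labels' protocols, total RNA was extracted at 4 h and amplified RNA was labelled with biotin for 3' expression arrays, 1 per group. The authors deposited log2 probe-set values, which per the submitters' processing notes were made with RMA and Partek. Their versions, and how many arrays went into 1 normalization, were not given in the labels or headers. RMA brings the arrays to nearly one distribution, so a change shared by most transcripts is reduced, and dim probe sets show compressed differences. Of 49386 probe sets 45259 had 1 gene symbol in the platform annotation, and 45178 took a current symbol from a RefSeq table (GRCh38.p14). Probe sets of several genes named none.

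Differences of single arrays, counts at 2-fold and medians were computed with Python 3.11.15 and pandas 2.3.3. The calculation was run on simulated data in which all probe sets of a changed gene moved alike, in genes above the filter. That run does not bear on the choice of probe set or on low signal. No test between groups could be run. All members were accounted for, and all 3 levels are given for members at least 2-fold different in any comparison and for the 3 next below 2-fold against control. From lists without members up to 4 genes with the largest differences were named. The members, lists and rules were chosen with earlier results of these data known. The number of arrays limits the precision. Alternatives covered the choice of probe set, the filter, the centring, a loess correction and the fold threshold.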

Additional observations from a re-analysis of the deposited data

How the results depend on the processing

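Every value rests on single arrays, so these alternatives show the effect of processing and not the spread between cultures. The medians of the members kept their direction under all alternatives run. With centring on poly-A spike-ins 29 members were at least 2-fold lower with DRB than control, against 24.7% of all genes, and the median was −1.33. Relative to DRB 14 were then at least 2-fold higher with E. coli 83972, against 21.9% of all genes, with a median of 0.86. With centring on hybridization spike-ins 6 members were at least 2-fold lower with E. coli 83972 than control (median −0.58), against 1.46% of all genes. Relative to DRB 1 was then lower with E. coli 83972, against 0.781% of all genes. With the 1.5-fold threshold the counts were 22 lower with DRB, 7 lower with E. coli 83972, and 13 higher and 2 lower with E. coli 83972 against DRB. The shares of all genes were 18.1%, 3.06%, 19.3% and 5.72% in the same order. With only plain-suffix probe sets, which 10 members have, the counts were 3 lower with DRB, 1 lower with E. coli 83972 and 0 higher with E. coli 83972 against DRB. Beside these, 11.5%, 0.63% and 14.3% of all genes were called in the same order. With the mean over probe sets 5 of 38 were higher with E. coli 83972 against DRB, against 9.27% of all genes. PLK4 then differed by −0.61 with DRB. Of 300 values recomputed for the named members 76 moved by more than the SD between probe sets. Centring shifts all differences of a comparison by the same amount, and 38 of 57 values moved with poly-A and 19 of 57 with hybridization centring. With the mean over probe sets 15 of 57 moved. In all 0 of the 2-fold differences changed sign, but centring could not have done so, since its largest shift was 0.65. The direction of members near 0 depended on the centring, as given beside their values. Among all genes past 2-fold with E. coli 83972 against control 74.5% were higher, against 59.8% with poly-A and 45.3% with hybridization centring. Low signal limits BORA and CDC25A, whose DRB values were under the filter level. No paired analysis was possible because each group has 1 array.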
